A study of Triticum aestivum with 24 samples.

Results

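The wheat transcripts described here carry IDs that begin with TraesCSU01G, in which the letter U takes the place of a chromosome name. They were chosen by that prefix alone, and they numbered 3043 transcripts of 2729 genes among the 137056 transcripts of 110790 genes in the table, the remaining 134013 being placed on the 21 chromosomes. After a filter on low counts, 784 of them could be tested. The filter was applied to all libraries together and kept 54517 transcripts in all.

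Leaves of the bread wheat cultivar cv Chinese Spring, widely used as a reference, gave the libraries. The plants were grown from selfed seed of a single plant. At the boot stage, when the spike is still enclosed by the flag leaf sheath, 72 plants were held at 37 °C for 5 days with ample watering and 72 stayed under the control regime of 18 °C in the light and 16 °C at night. Leaves were sampled at 0 DAT (days after treatment), which is the end of the stress, and again at 1 and 4 DAT. The 6 groups were heat-stressed and control leaves at each time, with 4 replicates in each, and every library was a pool of RNA from 18 plants, so that the spread described below is the spread between pools. All plants were of 1 genotype.

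A wheat genome assembly is built from sequence scaffolds that are ordered along the chromosomes of 3 subgenomes, A, B and D. Scaffolds that could not be ordered are collected in an unassigned group, and the genes predicted on them receive an ID without a chromosome. Such scaffolds are often short or rich in repeats, and genes on them can have close copies elsewhere in the assembly. Reads from near-identical copies cannot be told apart, so a method that estimates counts per transcript divides them among the copies. Values of a transcript with such a copy are therefore uncertain as values of that one locus.

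The files do not pair these IDs with gene names, and none of the IDs was matched by the RefSeq gene table used here. The only functional text came from the study's list of transcripts with a degradome-supported microRNA (miRNA) site, which was drawn from degradome libraries of the same experiment and of which a shortened copy was used here. Of the transcripts without a chromosome, 16 had a text in that list. A plant miRNA guides cleavage of RNAs to which it pairs almost completely, and the degradome is a survey of the cut ends.

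The sites are shown because they are the sequence that links members to a named function. Of the F-box genes, 4 carried sites for 1 miRNA family, miR9772. F-box proteins select the substrates of SCF ubiquitin ligases. The mature miRNA is printed with its seed, bases 2 to 8, in capitals. In the sites, which lie in coding sequence and run 5′ to 3′, capitals mark the bases that do not form a Watson–Crick pair with the miRNA.
miR9772-2.2-5p: gTTGAGATgagattaccccat
TraesCSU01G118200.1 (F-box and kelch): atggggtGatctcGtctcaac
TraesCSU01G028800.1 (F-box): atggggtGatctcGtctcaac
TraesCSU01G123200.1 (F-box): atggggtaatctTGtctcaac
TraesCSU01G027500.1 (F-box, paired with miR9772-4-5p): tatggggtGatTtcatctcC

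TraesCSU01G118200.1 and TraesCSU01G028800.1 held the same 21 bases, with 2 positions outside Watson–Crick pairing, each a G that faces U of the miRNA. TraesCSU01G123200.1 had as many such positions, not all of them at the same places, and there too G and U face each other. The other sites shown belong to annotated members with values described below, namely a mitochondrial transcription termination factor-like gene, a cytochrome P450 and subunit 4 of the cytochrome b6-f complex.
TraesCSU01G110400.1 (termination factor-like, miR9662-1.1-3p): cCgtTActctgggatgttcaG
TraesCSU01G247100.1 (cytochrome P450, miR1120-1361.2-5p): tattatggAAcggagggagta
TraesCSU01G269500.1 (cytochrome b6-f subunit 4, miR530-2-5p): tagTtgTaggtgcaaCtTcGg

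The transcripts without a chromosome were detected less widely than those of any chromosome. Of the 3043, 1177 (38.7%) had no count in any of the 24 libraries, whereas the chromosomes ranged from 17.4% on 4D to 27.2% on 7A. The filter kept 25.8% of them, against 35.5% on 7A to 45.1% on 4D. Genes with several transcripts made up 12.9%, below the chromosome range of 14.5% to 17.0%. The members that passed the filter had a median of 3.25 CPM, estimated counts scaled to a common library total, next to 3.30 on 7B and 4.03 on 4D.

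The clearest feature that the ID did not determine was duplication of values. Among the 784 tested members, 115 (14.7%) had exactly the same estimated count as at least 1 other tested transcript in every library. The share was 0.199% on 4A and 0.993% on 3B, the lowest and the highest of the chromosomes. The 115 members fell into 69 sets, of which 47 were pairs and the largest held 10 transcripts. In 31 sets, with 67 members, all the transcripts lacked a chromosome. In the other 38 sets, with 48 members, the partner was on a chromosome, most often 3B with 10 partners, followed by 2D and 5D with 8 each and 1D with 7. Counted by distinct pattern of values, the 784 members amounted to 738. These figures are shares of transcripts in 1 table and carry no replicate error. Fractional estimates, in contrast, were less frequent than on any chromosome. They made up 77.2% of the nonzero values of tested members, against 81.9% on 7A to 88.8% on 4D.

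**Figure D1:**
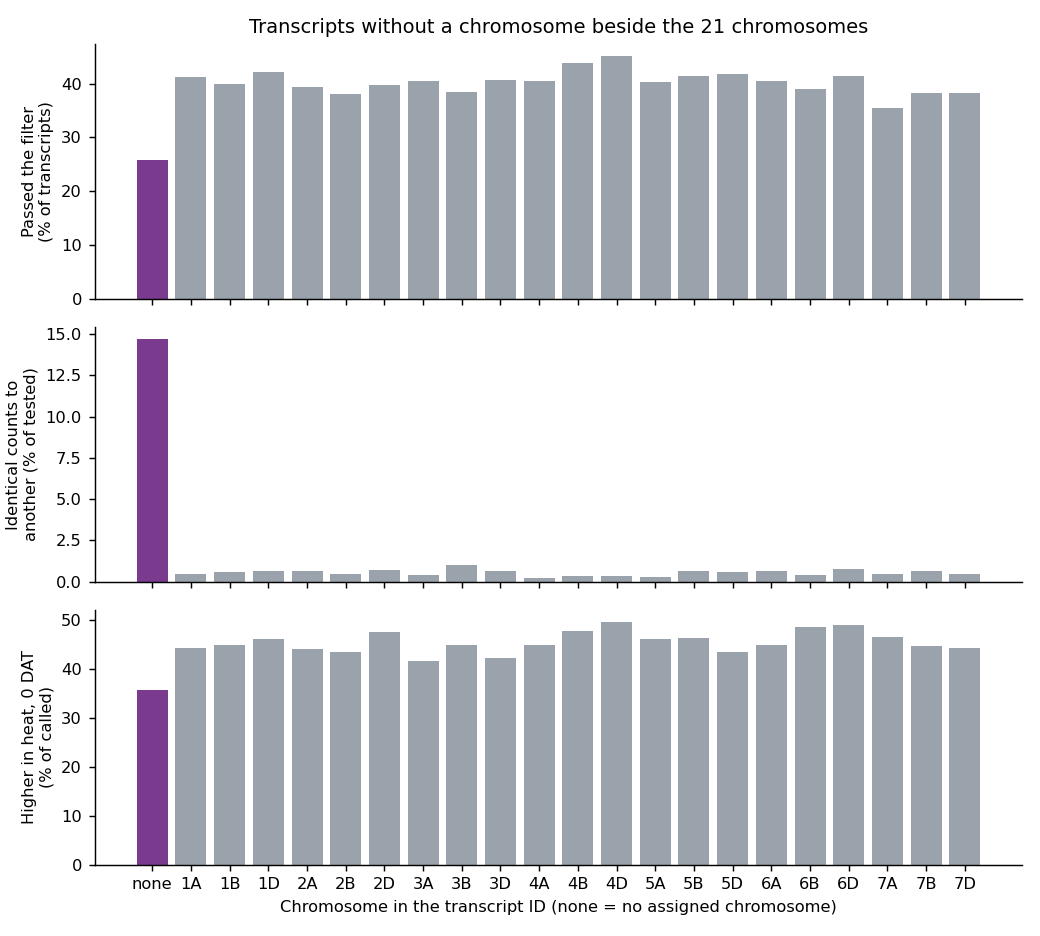
Bars give, for transcripts without a chromosome (left, "none") and for each of the 21 chromosomes, the percentage of transcripts that passed the filter, the percentage of tested transcripts whose counts were identical to another's in all 24 libraries, and the percentage of transcripts called at 0 DAT that were higher in heat. The leftmost bar is the lowest in the top panel (25.8%), the highest in the middle panel (14.7%) and the lowest in the bottom panel (35.6%).

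The total estimated count per library was between 5403461 and 16112270. The TraesCSU01G transcripts took 1.27% to 1.57% of it in 19 libraries. In 4 libraries, heat 1 DAT replicate 3, heat 4 DAT replicates 2 and 4 and control 4 DAT replicate 2, their share was 6.48% to 11.7%, and in heat 4 DAT replicate 1 it was 2.34%. These 4 libraries were defined by the transcript TraesCS1A01G000100.1 taking more than 1% of the counts. It took 3.67% to 6.95% of their counts and 0.0126% to 0.0548% of the counts in the 19, a gap that follows from the definition. Leaf identity was followed by the small chain of Rubisco, the carbon-fixing enzyme, at 974 to 10300 CPM. This marker differed with treatment at 0 DAT, with 974 to 2420 CPM in heat and 4160 to 7260 CPM in control.

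The excess rested on 36 members. In each of them the lowest value in the 4 libraries was more than 10 times the highest in the 19 (11 to 67.6 times). Together they held 5.26% to 10.5% of the counts of the 4 libraries, against 0.0195% to 0.0851% in the 19. On the chromosomes, 42 of 134013 transcripts (0.0313%) met the same rule, against 1.18% of the members. Those 42 held a similar part of the counts, 5.52% to 10% in the 4 libraries, against 0.0321% to 0.133% in the 19. The excess was thus not confined to transcripts without a chromosome. Of the 36, 31 had IDs numbered from TraesCSU01G254100 upward, a range that holds 190 of the members. Without the 36, the members took 1.16% to 1.52% of the counts in all 24 libraries, with group means (± SD, n = 4 each) of 1.30 ± 0.024% in heat and 1.41 ± 0.072% in control at 0 DAT, 1.28 ± 0.080% in heat and 1.26 ± 0.054% in control at 1 DAT, and 1.31 ± 0.078% in heat and 1.39 ± 0.11% in control at 4 DAT.

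TraesCSU01G258100.1 had the most counts of all members. At 1 DAT it measured 178, 71.1, 62000 and 262 CPM in heat (replicates 1 to 4), against 151, 140, 207 and 231 CPM in control. At 4 DAT the values were 4140, 32000, 155 and 30200 CPM in heat, against 138, 25600, 172 and 152 CPM in control. At 0 DAT both groups lay between 106 and 199 CPM. High values thus occurred in both treatments and marked single libraries, and the groups overlapped at every time. TraesCSU01G265300.1 and TraesCSU01G265500.1, the next in abundance, were identical with each other and with TraesCSU01G267800.1, and reached 22600 CPM in the same heat library at 1 DAT against 28.2 to 98.7 CPM in the other 3.

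The fit called 7 of the 36 higher in heat at 1 DAT, among them TraesCSU01G258100.1 (log2 fold change 6.42 ± 2.1 SE, edgeR adjusted p = 0.046). Without heat 1 DAT replicate 3 its log2 fold change was -0.09 (adjusted p = 0.99), and none of the 36 was called. Without the 4 libraries it was -0.07 (adjusted p = 0.98). Leaving out any single control library of 1 DAT also ended that call, at adjusted p of 0.091 to 0.11. The origin of these counts was not tested.

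**Figure D2:**
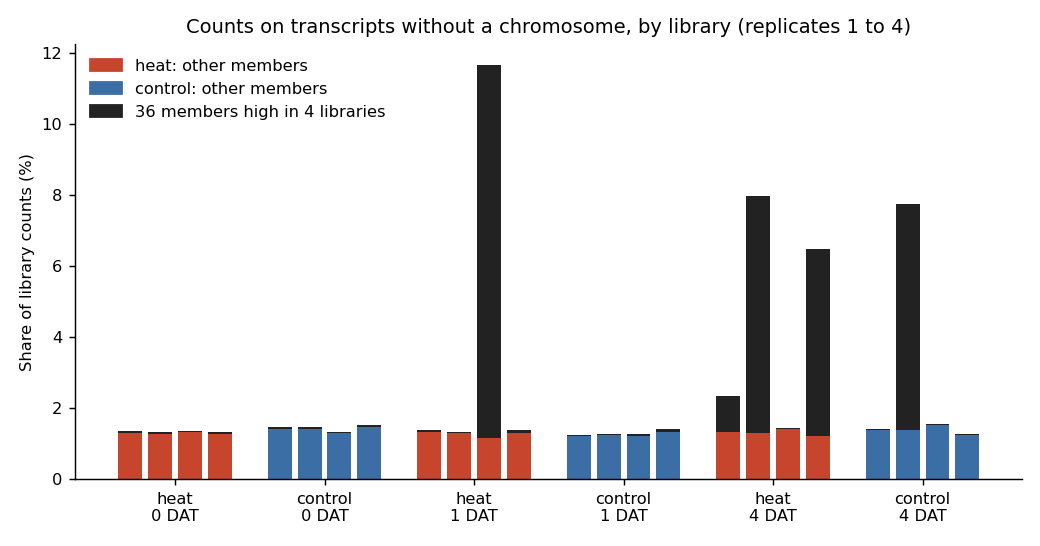
Each bar is 1 library, with replicates 1 to 4 from left to right in each group. The height is the percentage of the library's counts on transcripts without a chromosome, the black part being the 36 members that were high in the same 4 libraries. The coloured parts lie between 1.16% and 1.52% everywhere, and the black parts reach 5.26% to 10.5% in the 4 libraries.

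The first comparison asked which members differed between heat-stressed and control leaves at the end of the stress. At 0 DAT 194 of the 784 members were called at an adjusted p under 0.05 (edgeR quasi-likelihood test, Benjamini–Hochberg over all 54517 transcripts). This is 24.7%, and 24.3% of all transcripts tested were called. In heat 69 were higher and 125 lower. In whole leaves, a change in the number of cells of a type and a change in RNA per cell cannot be told apart. As shares of the transcripts tested, 8.80% of the members were higher in heat, against 11% of all transcripts, and 15.9% were lower, against 13.3%. Of the called members 35.6% were higher, below each of the 21 chromosomes (41.6% on 3A to 49.5% on 4D). That split was not tested, and it depended on scaling. With total counts in place of TMM factors, 150 of 211 called members were higher (71.1%, against 83.1% of all called transcripts), and the median log2 fold change of all transcripts was 0.54 with this scaling, against 0.03 with TMM.

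The median log2 fold change of the tested members at 0 DAT was -0.08, and that of all transcripts was 0.03. Counting each set of identical transcripts once left 177 calls, 63 higher and 114 lower. Calls of at least 2-fold numbered 149, or 19.0% of the members, against 14.2% of all, and 281 had an unadjusted p under 0.05 (35.8%, against 35.4%). The heat and control libraries did not overlap for 107 members that were higher in heat and 152 that were lower, which is 13.6% and 19.4%, against 16% and 16.4% of all transcripts.

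The members with the largest rise at 0 DAT were near or at 0 in control leaves. TraesCSU01G073200.1 measured 7.96, 8.06, 7.53 and 8.71 CPM in heat, and had no count in the 4 control libraries. With a floor of 3 counts over the control group, it was at least 119-fold higher in heat (edgeR adjusted p = 0.0091). DESeq2 did not call it (adjusted p = 0.11). At 1 DAT it had counts in 1 library of each treatment, and at 4 DAT in none.

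TraesCSU01G047300.1 measured 31.3, 13.5, 12.4 and 10.2 CPM in heat at 0 DAT, and 0, 0.0931, 0 and 0 CPM in control. This was 1217 counts against 1 count, a ratio of 877 with a 95% exact counting interval of 157 to 34700 (edgeR adjusted p = 1.5e-06). It stayed detectable in 3 of 4 heat libraries at 1 DAT, at 0.952, 0.498 and 0.687 CPM, where control had no count and the difference was at least 7.39-fold (adjusted p = 0.0067). Such intervals and floors cover counting error only. A further pair with identical values, TraesCSU01G147100.1 and TraesCSU01G251500.1, measured 1.90 to 3.17 CPM in heat with no count in control, at least 36.2-fold higher in heat. That pair was picked out after its values were seen.

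Among unannotated members called at 0 DAT that reached 5 CPM in a group and did not overlap between treatments, the largest falls were in TraesCSU01G086800.1 and TraesCSU01G250000.1. Members of lower level, such as TraesCSU01G019200.3 described below, had larger fitted falls. TraesCSU01G086800.1 measured 2.16, 0.825, 3.21 and 3.27 CPM in heat at 0 DAT, against 44.6, 48.5, 54.0 and 36.7 CPM in control. Its log2 fold change was -4.31 ± 0.51 (SE, adjusted p = 3.0e-06). TraesCSU01G250000.1 measured 13.1, 28.8, 25.2 and 28.1 CPM in heat, against 316, 396, 525 and 299 CPM in control (-4.01 ± 0.58, adjusted p = 2.8e-05). The groups were far apart in both, and both calls held in each of their 18 alternative fits.

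By 1 DAT 101 members were called (12.9%, against 13.5% of all transcripts), 50 higher and 51 lower in heat. Without control 1 DAT replicate 2 the count was 67. Without heat 1 DAT replicate 3 it was 71, with 64 of them among the 101. Without the 4 libraries that stood apart it was 72, with 63 among the 101. The median log2 fold change was 0.00 for the members and -0.04 for all transcripts. The libraries did not overlap for 46 members higher in heat and 72 lower (5.87% and 9.18%, against 8.65% and 7.74% of all). Calls of at least 2-fold numbered 66 (8.42%, against 7.04%), and 247 members had an unadjusted p under 0.05 (31.5%, against 27.1%).

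Among unannotated members called at 1 DAT that reached 5 CPM in a group and did not overlap between treatments, both with the largest rise had also risen at 0 DAT. The limits leave out TraesCSU01G047300.1 and the members high in single libraries, which had larger fitted rises. TraesCSU01G009200.1 measured 415, 281, 434 and 457 CPM in heat at 1 DAT, against 61.5, 51.5, 115 and 29.9 CPM in control. The log2 fold change was 2.63 ± 0.32 (adjusted p = 1.2e-05), after 1.93 ± 0.31 at 0 DAT (adjusted p = 0.0001). At 4 DAT its heat libraries were at 80.4 to 148 CPM and its control libraries at 53.0 to 87.0 CPM, and the ranges overlapped.

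TraesCSU01G014400.1 measured 8.47, 9.47, 8.28 and 10.4 CPM in heat at 1 DAT, against 2.80, 2.42, 1.70 and 1.88 CPM in control. The log2 fold change was 2.06 ± 0.24 (adjusted p = 7.3e-06), and at 0 DAT it was 1.70 ± 0.23 (adjusted p = 1.2e-05). At 4 DAT it was 0.19 ± 0.24 and the groups overlapped. None of the calls of these 2 transcripts at 0 and 1 DAT was lost in an alternative fit.

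Under the same limits, the members with the largest fall at 1 DAT had likewise been lower at 0 DAT. Members below 5 CPM, such as TraesCSU01G187500.1 (-3.26, adjusted p = 0.041), had larger fitted falls. TraesCSU01G176200.1 measured 0.857, 1.40, 0.552 and 0.687 CPM in heat at 1 DAT, against 9.73, 9.77, 2.87 and 7.34 CPM in control (-3.04 ± 0.71, adjusted p = 0.0065). TraesCSU01G003000.1 measured 0.571, 1.69, 0.920 and 0.429 CPM in heat, against 11.9, 4.23, 2.74 and 6.18 CPM in control (-2.79 ± 0.71, adjusted p = 0.012). Heat and control did not overlap in either, which the limits required. The earlier fall of TraesCSU01G003000.1 at 0 DAT (-1.99 ± 0.62, adjusted p = 0.024) rested on single libraries, with an adjusted p of 0.087 without control replicate 1, 0.051 without control replicate 4, 0.079 without heat replicate 1 and 0.077 without heat replicate 4.

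At 4 DAT 3 members were called, all lower in heat, which is 0.383% of the members where 0.18% of all transcripts were called. None was called higher by edgeR's quasi-likelihood test (0.0697% of all were), and 1 was both by edgeR's likelihood ratio test and by DESeq2. At an unadjusted p under 0.05 the number was 71 (9.06%, against 9.55% of all). The libraries did not overlap for 8 members higher in heat and 32 lower (1.02% and 4.08%, against 2.14% and 2.83% of all). The 4 DAT counts were fragile. Without control replicate 4, heat replicate 1, heat replicate 2 or heat replicate 3 of 4 DAT no member was called, and without the 4 libraries that stood apart none was either. The latter fit lacks heat replicates 2 and 4 and control replicate 2 of 4 DAT, so it has fewer libraries with which to detect a difference. DESeq2 called 10 members, 1 higher and 9 lower, and the edgeR likelihood ratio test called 8, 1 higher and 7 lower.

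Those 3 members were also lower at 0 and 1 DAT. TraesCSU01G204000.1 and TraesCSU01G203700.1 were identical in value with each other and with TraesCS2B01G031900.1 on chromosome 2B, so they are 1 pattern. It measured 1.71, 4.06, 3.12 and 2.57 CPM in heat at 0 DAT, against 8.91, 7.08, 12 and 12.4 CPM in control (-1.82 ± 0.33, adjusted p = 0.00037). At 1 DAT the values were 2.29, 1.89, 2.02 and 1.72 CPM in heat, against 10.5, 8.77, 13.8 and 6.27 CPM in control (-2.30 ± 0.35, adjusted p = 0.00016). At 4 DAT they were 2.32, 2.70, 2.12 and 6.34 CPM in heat, against 9.81, 9.99, 9.79 and 18.5 CPM in control (-1.89 ± 0.35, adjusted p = 0.027). The 4 heat libraries were below the 4 control libraries at all 3 times. The call at 4 DAT was lost without control replicate 4 (adjusted p = 0.069) and without heat replicates 1, 2 or 3 (0.12, 0.10 and 0.089).

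TraesCSU01G031600.1 measured 0.844, 1.46, 2.04 and 0.793 CPM in heat at 4 DAT, against 6.16, 18.2, 5.46 and 5.08 CPM in control (-2.71 ± 0.55, adjusted p = 0.044). The groups did not overlap at this or the earlier times. With the replicate number as a block, as the samples of equal number deviated together at 4 DAT, the adjusted p was 0.071, and 2 of the 3 calls remained. Leaving out any single library of 4 DAT also ended this call (adjusted p of 0.05 to 0.17). At 1 DAT its log2 fold change was -1.82 ± 0.55 (adjusted p = 0.032), with an adjusted p of 0.16 without control replicate 2 and 0.069, 0.091 and 0.081 without heat replicates 1, 2 and 3. At 0 DAT it was -2.34 ± 0.53 (adjusted p = 0.0025). In all, 3 members (0.383%) were called lower at each of the 3 times, against 0.0715% of all transcripts. Counted by distinct pattern of values they were 2 of 738.

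**Figure D3:**
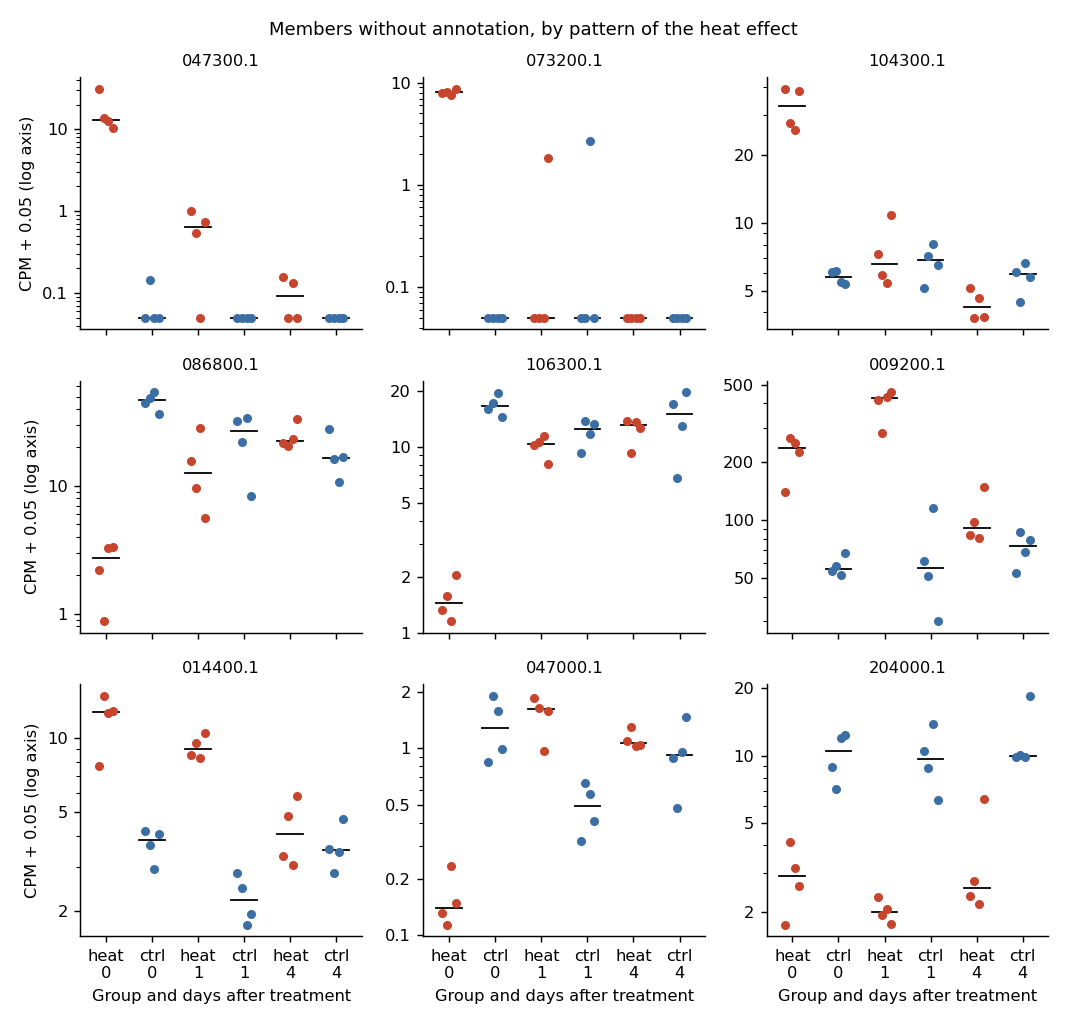
CPM plus 0.05 on a log axis for 9 members without annotation, with 1 point per library (red, heat; blue, control) and a line at the group median, at 0, 1 and 4 DAT. TraesCSU01G047300.1, TraesCSU01G073200.1 and TraesCSU01G104300.1 are high in heat at 0 DAT, TraesCSU01G086800.1 and TraesCSU01G106300.1 are low at 0 DAT, TraesCSU01G009200.1 and TraesCSU01G014400.1 are high at 0 and 1 DAT, TraesCSU01G047000.1 is below control at 0 DAT and above it at 1 DAT, and TraesCSU01G204000.1 is low at all 3 times.

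Between 0 and 1 DAT, 18 members stayed higher in heat (2.30%, against 3.42% of all transcripts) and 34 stayed lower (4.34%, against 3.21%). A call at 0 DAT alone of the 3 times was found for 51 members higher in heat (6.51%, against 7.33%) and 89 lower (11.4%, against 9.8%). New at 1 DAT were 30 members higher in heat (3.83%, against 3.61%) and 17 lower (2.17%, against 2.76%). The comparisons at the 3 times use separate libraries of the same plants.

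The change of the heat effect between times was tested as the difference of the log2 fold changes. From 0 to 1 DAT it was called for 50 members (6.38%, against 7.05% of all), 37 with a positive difference (4.72%, against 4.45%) and 13 with a negative one (1.66%, against 2.6%). With a block for the pool of plants, which is the pairing the sampling gives because the same plants were sampled at each time, 32 were called, 31 of them among the 50. Without heat 0 DAT replicate 1, 33 were called. From 0 to 4 DAT it was called for 83 members (10.6%, against 10.2%), 51 positive (6.51%, against 6.01%) and 32 negative (4.08%, against 4.23%). With the pool block 61 were called, 60 of them among the 83. The differences of single members below come from the fit without that block unless said otherwise. The count was 52 without the 4 libraries that stood apart, 44 of which were among the 83. With total counts as scaling, 20 of 39 and 20 of 90 calls were positive, and the medians of all transcripts moved to -0.46 and -0.64.

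TraesCSU01G106300.1 showed a fall that had gone by 1 DAT. It measured 1.27, 1.52, 1.10 and 1.98 CPM in heat at 0 DAT, against 15.9, 17.2, 19.3 and 14.4 CPM in control (-3.52 ± 0.27, adjusted p = 1.3e-08). At 1 DAT it measured 10.2, 10.5, 11.4 and 8.07 CPM in heat, against 9.20, 13.7, 11.6 and 13.2 CPM in control, and the groups overlapped. The heat effect differed by 3.26 ± 0.35 between 1 and 0 DAT (adjusted p = 1.9e-05) and by 3.33 ± 0.35 between 4 and 0 DAT (adjusted p = 7.7e-06).

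TraesCSU01G086800.1, described above, had a difference of 3.58 ± 0.66 between 1 and 0 DAT (adjusted p = 0.002) and of 4.77 ± 0.67 between 4 and 0 DAT (adjusted p = 0.00011). At 4 DAT its heat libraries were at 20.6 to 33.3 CPM and its control libraries at 10.7 to 28 CPM. TraesCSU01G183300.1 had the next largest positive difference between 4 and 0 DAT among called members that reached 5 CPM (4.50 ± 1.2, adjusted p = 0.02). It ranged from 0.254 to 2.75 CPM in heat and from 3.26 to 29.5 CPM in control at 0 DAT, and from 2.74 to 32.4 CPM in heat and 1.96 to 22.4 CPM in control at 4 DAT. With the pool block its adjusted p was 0.11, and without the 4 libraries that stood apart it was 0.055.

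TraesCSU01G104300.1 showed the opposite course. It measured 39.3, 27.7, 25.6 and 38.2 CPM in heat at 0 DAT, against 5.97, 6.05, 5.41 and 5.32 CPM in control (2.52 ± 0.20, adjusted p = 2.9e-08). At 1 DAT it measured 7.24, 5.78, 5.34 and 10.8 CPM in heat, against 5.07, 7.05, 7.96 and 6.45 CPM in control. The rise at 0 DAT was in all 4 heat libraries, and the groups overlapped 1 day later. The difference was -2.37 ± 0.29 between 1 and 0 DAT (adjusted p = 4.8e-05) and -2.91 ± 0.29 between 4 and 0 DAT (adjusted p = 5.5e-06).

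TraesCSU01G186800.1 measured 35.9, 14.1, 18.3 and 12.1 CPM in heat at 0 DAT, against 3.10, 0, 1.53 and 2.25 CPM in control (3.54 ± 0.81, adjusted p = 0.0027). At 4 DAT it measured 0 to 7.93 CPM in heat and 1.83 to 18.1 CPM in control. The difference between 4 and 0 DAT was -4.72 ± 1.1 (adjusted p = 0.0086). The difference between 1 and 0 DAT (-3.79 ± 1.1, adjusted p = 0.035) was lost without control 0 DAT replicates 2, 3 or 4, heat 0 DAT replicate 1, control 1 DAT replicates 1 or 4, or heat 1 DAT replicates 1, 2 or 3, at adjusted p of 0.053 to 0.093.

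A change of sign between 0 and 1 DAT was called for 2 members (0.255%, against 0.282% of all transcripts), TraesCSU01G047000.1 and TraesCSU01G202300.1, which had identical values. They measured 0.0816, 0.0635, 0.184 and 0.099 CPM in heat at 0 DAT, against 0.796, 1.86, 1.53 and 0.947 CPM in control (-3.50 ± 0.47, adjusted p = 1.5e-05). At 1 DAT they measured 1.81, 1.59, 0.920 and 1.54 CPM in heat, against 0.267, 0.605, 0.522 and 0.358 CPM in control (1.72 ± 0.43, adjusted p = 0.011). The groups did not overlap at either time, and both calls held in each alternative fit. The heat effect differed by 5.22 ± 0.64 (adjusted p = 5.3e-05). The level was low throughout. No member was higher at 0 DAT and lower at 1 DAT by the edgeR test, against 0.216% of all transcripts.

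**Figure D4:**
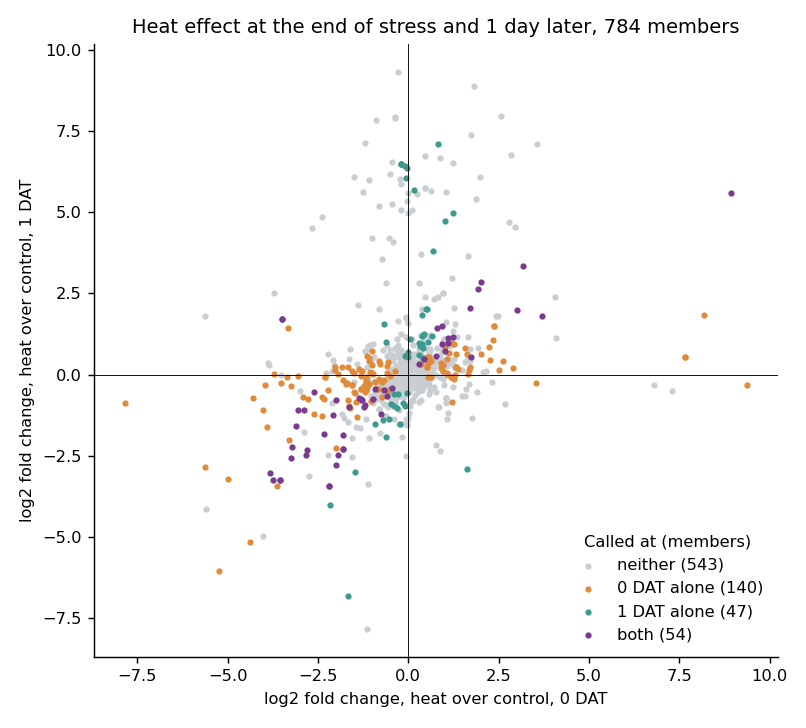
Each point is 1 of the 784 tested members, with the log2 fold change of heat over control at 0 DAT on the horizontal axis and at 1 DAT on the vertical axis. Colours give the time of the call (0 DAT alone 140, 1 DAT alone 47, both 54, neither 543). Members called at both times lie in the lower left and upper right quadrants, except for the pair at -3.50 and 1.72, and grey points high on the vertical axis were not called.

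Several transcripts of 1 gene could be compared in 64 of the genes without a chromosome. In 14 of them at least 1 transcript was called at 0 DAT, and in 1 gene, TraesCSU01G106100, transcripts were called in opposite directions. These are 21.9% and 1.56% of the 64, against 23.2% and 0.414% of the 5791 genes with several tested transcripts in the whole table. Its transcript 3, TraesCSU01G106100.3, measured 7.39, 8.76, 11.1 and 4.26 CPM in heat, against 29.4, 22.2, 22.9 and 28.5 CPM in control (-1.70 ± 0.21, adjusted p = 4.1e-06). TraesCSU01G106100.4 measured 20.9, 19.7, 19.8 and 22.2 CPM in heat, against 6.69, 11.7, 12.8 and 8.40 CPM in control (1.06 ± 0.29, adjusted p = 0.01). TraesCSU01G106100.1 was higher in heat too (1.63 ± 0.43, adjusted p = 0.0072). Heat and control did not overlap in any of the 3.

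In TraesCSU01G019200 1 of 3 tested transcripts was not detected at the end of the stress. TraesCSU01G019200.3 had no count in the 4 heat libraries at 0 DAT, and measured 2.71, 2.70, 2.18 and 3.55 CPM in control. With a floor of 3 counts over the heat group it was at least 56.8-fold lower in heat (adjusted p = 7.3e-07). TraesCSU01G019200.1 of the same gene measured 3.43, 3.81, 2.66 and 4.36 CPM in heat and 4.30, 4.56, 5.97 and 3.79 CPM in control (adjusted p = 0.53). TraesCSU01G019200.2 measured 1.71, 1.33, 2.02 and 1.39 CPM in heat and 0, 1.12, 0 and 0 CPM in control, which did not overlap and went the other way without being called (adjusted p = 0.34). TraesCSU01G019200.3 was back at 1.10 to 2.39 CPM in heat at 1 DAT, with control at 1.07 to 4.18 CPM. Both genes were picked out after their values were seen, and the counts of transcripts that share exons are estimates.

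Neighbouring ID numbers were examined for calls in the same direction. Among 467 pairs of members whose ID numbers differed by at most 300, 21 (4.50%) were called in the same direction at 0 DAT, 6 higher and 15 lower. On the chromosomes 4.70% of 38579 such pairs were. Close numbers need not mean neighbouring genes among unordered scaffolds.

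Of the 16 members with an annotation text, 5 passed the filter (31.2%, against 63.0% of the 579 listed transcripts on chromosomes). At 0 DAT 1 of the 5 was called higher, and at 1 DAT 2 were. Of the 365 tested transcripts listed on chromosomes, 53 were called higher and 50 lower at 0 DAT, and 25 higher and 19 lower at 1 DAT. None of the 5 members was called lower at any time, or called at 4 DAT, by edgeR. At 4 DAT 2 of the 5 had an unadjusted p under 0.05, and no alternative fit, DESeq2 included, called one of the 5.

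TraesCSU01G219600.1, a putative cysteine protease, was higher in heat at 0 DAT. Enzymes of this class degrade proteins in the vacuole and elsewhere. It measured 31.6, 33.9, 30.2 and 28.2 CPM in heat, against 20.1, 21.2, 22.6 and 22.1 CPM in control (log2 fold change 0.53 ± 0.12, adjusted p = 0.0031). The groups did not overlap, and the call held in all 18 alternative fits. At 1 DAT (0.23 ± 0.12, adjusted p = 0.25) and 4 DAT (0.16 ± 0.12, adjusted p = 0.78) the ranges overlapped. Its values were identical with those of TraesCSU01G228200.1 and TraesCS6B01G140200.1, so they describe a set of copies.

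TraesCSU01G247100.1, annotated as a cytochrome P450, rose most clearly after the stress had ended. P450s are haem enzymes that oxidise hormones, defence compounds and other small molecules. At 0 DAT it measured 22.2, 19.7, 13.3 and 16.6 CPM in heat, against 15.9, 11.8, 11.5 and 12.1 CPM in control (0.49 ± 0.28, adjusted p = 0.22). At 1 DAT it measured 59.8, 33.2, 24.7 and 34.1 CPM in heat, against 14.3, 5.34, 8.36 and 9.58 CPM in control (2.02 ± 0.29, adjusted p = 6.7e-05). All heat libraries were above all control libraries at 1 DAT only. At 4 DAT the log2 fold change was 0.66 ± 0.28 (adjusted p = 0.47).

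The heat effect on TraesCSU01G247100.1 was larger at 1 than at 0 DAT by 1.54 ± 0.39 (adjusted p = 0.02). Without heat 1 DAT replicate 1, the highest library, the difference was 1.23 (adjusted p = 0.056), and with total counts as scaling it was 1.08 (adjusted p = 0.23).

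TraesCSU01G269500.1, annotated as subunit 4 of the cytochrome b6-f complex, was also higher at 1 DAT. The complex carries electrons between the photosystems in the thylakoid membrane, and in plants its subunit 4 is encoded in the chloroplast genome. It measured 24.9, 18.4, 81.9 and 19.1 CPM in heat, against 7.47, 9.37, 9.27 and 8.77 CPM in control (2.03 ± 0.48, adjusted p = 0.0069). The highest value was in heat 1 DAT replicate 3, one of the libraries that stood apart. Over the 18 alternative fits the log2 fold change was 1.26 to 2.26 and the adjusted p 0.00017 to 0.046. The 1.26 was also the lowest value when 1 library was left out. With the other heat libraries at 18.4 to 24.9 CPM, the size of 2.03 thus rested in part on replicate 3.

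At 4 DAT TraesCSU01G269500.1 measured 21.3, 42.2, 13.1 and 47.4 CPM in heat, against 8.97, 30.0, 9.22 and 10.5 CPM in control (1.06 ± 0.46, adjusted p = 0.47). The 3 highest values were those of the other libraries that stood apart, 2 of heat and 1 of control, so this transcript moved with them. The part of that shift in the 1 DAT call was not tested beyond leaving those libraries out. At 0 DAT it measured 13.7, 12.5, 11.4 and 14.1 CPM in heat, against 7.32, 6.98, 11.3 and 10.2 CPM in control. The groups did not overlap. The log2 fold change of 0.53 ± 0.47 was not called (adjusted p = 0.46), and without the 4 libraries it was 0.55 with an adjusted p of 0.034.

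Of the 4 F-box genes with the miR9772 site shown above, only TraesCSU01G118200.1 passed the filter, and the other 3 were near the limit of detection. TraesCSU01G118200.1 measured 1.51, 0.952, 1.93 and 1.09 CPM in heat at 0 DAT, against 0.796, 1.96, 0.968 and 1.30 CPM in control (0.13 ± 0.31, adjusted p = 0.83), and its groups overlapped at all 3 times. The others had 12 (TraesCSU01G027500.1), 5.8 (TraesCSU01G028800.1) and 5 (TraesCSU01G123200.1) estimated counts over all 24 libraries and were not tested. The fifth F-box gene, TraesCSU01G159400.1, paired with miR1135 and was well expressed. It measured 26.3, 34.3, 30.5 and 25.7 CPM in heat at 0 DAT, against 54.6, 36.1, 31.1 and 37.5 CPM in control (-0.45 ± 0.20, adjusted p = 0.12). Among the listed F-box transcripts on chromosomes, 12 of 25 were tested, and at 0 DAT 2 of them were called higher and 1 lower.

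The mitochondrial transcription termination factor-like gene TraesCSU01G110400.1 had few counts, but they lay in heat. Proteins of this family act in the expression of organelle genes in plants. At 0 DAT it had 5, 10, 4 and 9 counts in the heat libraries and none in control, at least 6.73-fold higher in heat. At 1 DAT it had 1, 3, 3 and 7 counts in heat, against 0, 0, 1 and 0 in control, a ratio of 13.5 with a 95% exact counting interval of 2.05 to 571. At 4 DAT it had none in either group. It fell below the filter. In the fit without a filter the edgeR adjusted p was 0.012 at 0 DAT and 0.16 at 1 DAT. Of the listed termination factors on chromosomes, 9 of 22 were tested, with 1 called higher at 0 DAT and 1 at 1 DAT.

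The remaining annotated members did not pass the filter. The pentatricopeptide repeat gene TraesCSU01G090200.1, of a family that binds organelle RNA, had 39 counts in heat and 8 in control at 0 DAT, a ratio of 3.51 (95% exact counting interval 1.62 to 8.71). Without a filter its edgeR adjusted p was 0.29. The other pentatricopeptide gene, TraesCSU01G111200.1, had 4 counts in all. The disease resistance gene TraesCSU01G161000.1, annotated as RPM1 after an immune receptor of Arabidopsis, had 145, and without a filter its adjusted p at 0 DAT was 0.91 (log2 fold change 0.31). The sec20 vesicle transport gene TraesCSU01G049300.1 had 19.1, and TraesCSU01G068000.1, with a domain of unknown function, had 16.6. TraesCSU01G096300.1 (ankyrin repeat) and TraesCSU01G100400.1 (sulfotransferase) had no count in any library.

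**Figure D5:**
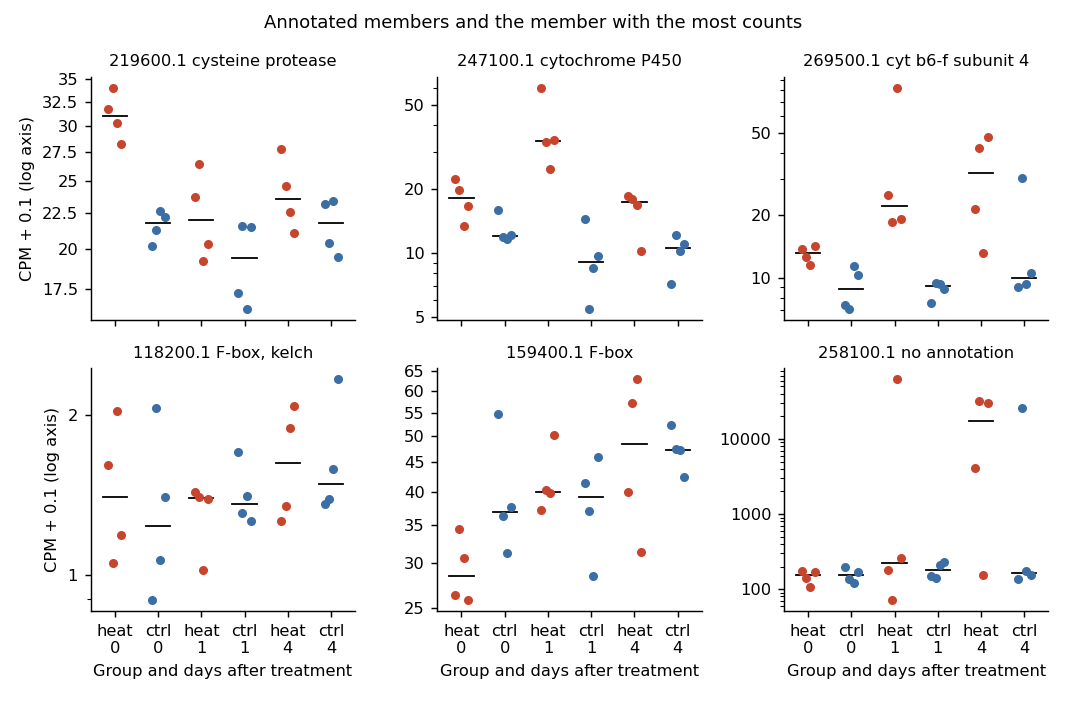
CPM plus 0.1 on a log axis for the 5 tested members with annotation and for TraesCSU01G258100.1, with 1 point per library (red, heat; blue, control) and a line at the group median, at 0, 1 and 4 DAT. Heat and control are separate for TraesCSU01G219600.1 at 0 DAT for TraesCSU01G247100.1 at 1 DAT and for TraesCSU01G269500.1 at 0 and 1 DAT, and the points near 62000, 32000, 30200 and 25600 CPM of TraesCSU01G258100.1 are the 4 libraries that stood apart.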

How the data were processed

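Leaf mRNA was sequenced in 24 libraries (paired-end reads, Illumina HiSeq 4000), and the deposited table holds the expected counts of the authors, that is the number of reads estimated per transcript with kallisto after trimming with Trimmomatic. Their versions and the transcript index are not given in the sources used here; the study names IWGSC RefSeq v1.0 for its degradome. Estimated counts divide reads among similar transcripts, so copies share reads, and the whole table was rounded to whole counts here. Transcripts were filtered with filterByExpr (at least 10 counts, total at least 15), scaled with TMM factors and tested with the quasi-likelihood test of edgeR 4.0.16 (limma 3.58.1, R 4.3.3) on 6 group means over all 24 libraries, with adjustment over all 54517 transcripts tested. The study describes an edgeR likelihood ratio test for small RNA and none for these libraries, so that test is an alternative. CPM use TMM-scaled totals. Standard errors were derived from the F statistic and are approximate.

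The members and lists were chosen with earlier results of these data known. The text names every member with a text in the study's target list, and, for each of the 5 comparisons, the top 2 and bottom 2 calls by log2 fold change among those without a text that reached 5 CPM in a group and, between treatments, did not overlap. It also names the 3 with the highest mean CPM, up to 3 called the same way at all times and up to 2 called in opposite directions. Not every target site is reported here. Features outside this rule are said to be so where they appear.

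Same-numbered heat and control libraries deviated together at 4 DAT (correlations of 0.13 to 0.31) but not in every pair at 0 DAT (-0.025 to 0.10) or 1 DAT (0.081 to 0.33). Across times a pool holds the same 18 plants, which pairs the libraries for the differences. Alternatives were DESeq2 1.42.0, its size factors in edgeR, the likelihood ratio test, other filters and scalings, blocks, counts per gene, 1 transcript of each identical set, and libraries left out. The procedure was tested on simulated counts with a common spread, no shared reads and no libraries that stand apart. That test therefore does not cover these features of the data. Replicate libraries had a Pearson correlation of 0.857 to 0.950 across transcripts on log2(CPM + 1).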

Additional observations from a re-analysis of the deposited data

Results flagged for a closer look

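Of 144 groups of 4 libraries examined among the named members and the shares of counts, 21 held 1 library far from the other 3. The rule used gives about 1 in 20 groups by chance only for independent, normally distributed values. That rate is no yardstick here, because some groups had counts in only 1 library and many of the 144 groups share libraries. TraesCSU01G258100.1 and TraesCSU01G265300.1 were also named for a high mean CPM, which the libraries that stood apart raised. At 1 DAT heat replicate 3 reached 62000 CPM for TraesCSU01G258100.1, 22600 CPM for TraesCSU01G265300.1, 81.9 CPM for TraesCSU01G269500.1 and a share of 11.7% of counts on all members, and it was low for TraesCSU01G118200.1 (0.92 CPM). At 4 DAT control replicate 2 reached 25600, 8950 and 30.0 CPM for the first 3 of these transcripts, a share of 7.74%, and 18.2 CPM for TraesCSU01G031600.1. Control 1 DAT replicate 4 had the highest share on members in its group (1.40%, or 1.34% without the 36 members high in 4 libraries).

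The others were single values. Heat 4 DAT replicate 4 was high for TraesCSU01G204000.1 (6.34 CPM) and TraesCSU01G250000.1 (524 CPM), and control 4 DAT replicate 4 for TraesCSU01G204000.1 (18.5 CPM). Control 1 DAT replicate 2 was high for TraesCSU01G031600.1 (7.36 CPM) and control 0 DAT replicate 1 for TraesCSU01G247100.1 (15.9 CPM). TraesCSU01G047300.1 was at 31.3 CPM in heat 0 DAT replicate 1 and at 0.0931 CPM in control 0 DAT replicate 2. TraesCSU01G073200.1 had counts in heat 1 DAT replicate 4 (1.80 CPM) and control 1 DAT replicate 3 (2.61 CPM) and in no other library of 1 DAT.

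The heat effect differed between times by the edgeR test of the difference (adjusted p under 0.05, log2 scale) in 17 results on 11 named members. Between 1 and 0 DAT the difference was 1.54 for TraesCSU01G247100.1, 3.58 for TraesCSU01G086800.1, 2.93 for TraesCSU01G250000.1, 3.26 for TraesCSU01G106300.1, -3.79 for TraesCSU01G186800.1, -2.37 for TraesCSU01G104300.1 and 5.22 for TraesCSU01G047000.1. Between 4 and 0 DAT it was 4.77 for TraesCSU01G086800.1, 4.11 for TraesCSU01G250000.1, -1.51 for TraesCSU01G014400.1, 3.80 for TraesCSU01G176200.1, 3.33 for TraesCSU01G106300.1, -4.72 for TraesCSU01G186800.1, -2.91 for TraesCSU01G104300.1, 4.50 for TraesCSU01G183300.1 and 3.73 for TraesCSU01G047000.1. For TraesCSU01G009200.1 it was -1.42 (adjusted p = 0.038), and the call was lost in 16 of 27 alternative fits, with an adjusted p of 0.00089 to 0.078 over the 27.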

How the results depend on the processing

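The count of members called at 0 DAT (194) stayed within 1.5 times in every alternative tried, with 163 to 184 when 1 library was left out. The members called could differ more than their count. Total-count scaling called 211, with 130 of the 194 among them and 64 lost, whereas DESeq2 called 243, with 193 of the 194 among them. At 1 DAT (101) DESeq2 called 156, no filter gave 64, total-count scaling 56 and a fit of the 8 libraries of that time 42, with 67 to 97 when 1 library was left out. At 4 DAT (3) DESeq2 called 10, the likelihood ratio test 8, counts per gene 8, 1 transcript of each identical set 1, a fit of the 8 libraries 0 and the fit without the 4 libraries that stood apart 0, with 0 to 2 when 1 library was left out. For the difference between 1 and 0 DAT (50) DESeq2 called 87, the likelihood ratio test 80 and the pool replicate block 32, with 33 to 56 when 1 library was left out. For that between 4 and 0 DAT (83) the fit without the 4 libraries gave 52 and the pool replicate block 61, with 66 to 84 when 1 library was left out. The replicate block gave 192, 86 and 2 calls at 0, 1 and 4 DAT and 44 and 73 for the differences.

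The median log2 fold change of the members was 0.44, 0.07 and -0.07 at 0, 1 and 4 DAT with total-count scaling, -0.12 to -0.05 at 0 DAT and -0.04 to 0.06 at 1 DAT when 1 library was left out. For the named transcripts, 1119 of 1207 alternative values stayed on their side of the threshold, 83 fell short of it and 3 passed it. Direction was compared only for results that the main fit called. Among those, 2 values reversed, both of TraesCSU01G258100.1 at 1 DAT (-0.07 without the 4 libraries, and -0.09 to 6.84 when 1 library was left out). Results without a call could change sign within the 1119, as TraesCSU01G118200.1 did at 4 DAT (-0.02 in the main fit, -0.16 to 0.19 over its alternatives). The cause of these shifts was not tested. Reads shared among copies and the low counts of most members limit the depth of what can be compared, and each library is 1 pool of plants.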
